A study of Homo sapiens with 14 samples.

Results

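The genes described here make cholesterol and fatty acids, or control and export these lipids. They are 28 named genes, chosen by function from a list of names, with earlier results of these data known, out of 24638 genes that all 3 kinds of deposited table list. All 28 were found in every table and all 28 passed the filter on low counts in both tested comparisons. RNA-seq was performed on IMR90 cells, a line of human fetal lung fibroblasts with a finite lifespan in culture, in 7 groups. I79 young and I10 young were proliferating cells of 2 isolates of the line, and I79 old and I10 old were the same isolates passaged to replicative senescence. I79 ICM cells were I79 cells treated with inflachromene (ICM), a small molecule whose targets are the chromatin proteins HMGB1 and HMGB2. WT cells were wild type, and HMGB2 KD cells had HMGB2 knocked down, by siRNA according to the methods of the study. For WT and HMGB2 KD the labels give no isolate, nor do they say whether WT cells were given a control siRNA.

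Cholesterol is built from acetyl-CoA through mevalonate, isoprenoid units, squalene and lanosterol. When membranes of the endoplasmic reticulum are poor in sterol, SCAP escorts the precursors of the SREBP transcription factors (encoded by SREBF1 and SREBF2) to the Golgi, where they are cut and released to switch on most genes of this pathway. When sterol is plentiful, the INSIG proteins hold SCAP back, while the nuclear receptor LXR switches on the exporters ABCA1 and ABCG1 as well as SREBF1. Fibroblasts in culture can both make cholesterol and take it up from serum.

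Each group of the knockdown experiment had 2 libraries, of 33561766 to 41168932 counts. Old and young cells had 1 column of estimated counts for each group, with totals between 14991385 and 20632959, although the titles list 2 replicates. These columns were read as pooled values, with no SD. The 2 I79 ICM libraries held 13290131 and 10971132 reads. Fibroblast markers summed to between 12567 and 33525 CPM (counts scaled to a common library total) in each library, while epithelial markers stayed at or under 9.0, leukocyte markers at or under 1.6 and adipocyte markers at or under 5.7 CPM. Endothelial markers summed to between 53.4 and 219.7 CPM. Nothing in the labels says that the 2 libraries of a group came from separate cultures, so the p-values measure only the spread between these libraries.

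Promoter stretches are shown for 6 members on which the results below turn: an early enzyme, the enzyme called after knockdown, the last enzyme of the listed route, both sides of the SREBP control loop, and the exporter called in old cells. The sequences are the 200 bases before the annotated transcription start from RefSeq (GRCh38.p14), 5′ to 3′ on the gene's strand, for the first listed start where a gene has more than 1. Capitals mark the sterol regulatory element TCACNCCAC and the CCAAT box, each searched on both strands.
HMGCS1, chr5:43313413-43313612, minus strand: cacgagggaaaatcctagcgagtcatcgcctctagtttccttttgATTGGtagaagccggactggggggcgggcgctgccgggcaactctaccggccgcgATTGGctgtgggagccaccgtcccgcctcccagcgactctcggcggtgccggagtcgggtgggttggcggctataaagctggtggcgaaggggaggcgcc
MSMO1, chr4:165327469-165327668, plus strand: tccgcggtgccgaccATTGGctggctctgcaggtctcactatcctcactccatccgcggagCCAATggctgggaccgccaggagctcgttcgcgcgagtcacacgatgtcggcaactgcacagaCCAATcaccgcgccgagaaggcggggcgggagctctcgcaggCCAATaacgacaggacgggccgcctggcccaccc
DHCR7, chr11:71448394-71448593, minus strand: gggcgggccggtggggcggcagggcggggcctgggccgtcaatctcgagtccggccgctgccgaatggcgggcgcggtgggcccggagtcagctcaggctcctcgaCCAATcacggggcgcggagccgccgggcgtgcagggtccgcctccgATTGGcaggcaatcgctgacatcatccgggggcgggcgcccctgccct
INSIG1, chr7:155297678-155297877, plus strand: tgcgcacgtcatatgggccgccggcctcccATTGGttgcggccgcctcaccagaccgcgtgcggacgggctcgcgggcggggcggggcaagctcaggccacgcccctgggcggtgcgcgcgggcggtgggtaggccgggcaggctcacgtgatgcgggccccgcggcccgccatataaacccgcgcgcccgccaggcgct
SREBF2, chr22:41832905-41833104, plus strand: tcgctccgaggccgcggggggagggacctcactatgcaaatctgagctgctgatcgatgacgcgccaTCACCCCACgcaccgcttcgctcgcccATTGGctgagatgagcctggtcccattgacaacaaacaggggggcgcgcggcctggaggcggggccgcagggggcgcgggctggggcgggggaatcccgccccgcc
ABCA1, chr9:104928156-104928355, minus strand: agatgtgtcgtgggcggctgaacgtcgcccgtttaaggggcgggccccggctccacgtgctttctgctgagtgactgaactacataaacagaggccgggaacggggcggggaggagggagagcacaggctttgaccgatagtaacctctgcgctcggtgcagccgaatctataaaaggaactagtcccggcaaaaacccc

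The MSMO1 stretch held 4 CCAAT boxes, those of HMGCS1 and DHCR7 held 2 each, and the ABCA1 stretch held no match to either motif. A window of 250 bases before the start was listed for 24 members. CCAAT was found in 18 of these 24 members (75%) and in 40.2% of the 15842 protein-coding genes with a window. The element TCACNCCAC was found in 1 of the 24 members, SREBF2, between 133 and 125 bases before the start, and in 1.19% of the protein-coding genes. Its shorter core CACNCCA, which lies inside the longer motif, was found in 12 of the 24 members (50%) and in 18.6% of the protein-coding genes. A match describes letters only, and no binding was measured here.

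Levels were compared between genes per transcript length, in TPM (reads scaled by transcript length and then to a common library total), which were deposited for the old and young columns only. In I79 young and I10 young, the highest level was that of FDPS, which makes farnesyl diphosphate, the branch point to sterols and to protein prenylation (106.5 and 116.1 TPM). FDFT1, which joins farnesyl units into squalene (87.8 and 85.3 TPM), and SCD, which desaturates fatty acids (82.6 and 83.5 TPM), followed it. Among the controls, SREBF2 (40.5 and 37.6 TPM) stood above SREBF1 (28.9 and 23.6 TPM) and SCAP (27.2 and 26.0 TPM). The lowest levels were those of the exporter ABCG1 (3.83 and 2.79 TPM) and of TM7SF2, a sterol reductase (4.36 and 5.76 TPM). The young columns of the 2 isolates were alike for these genes. On the log2 CPM scale none of the 28 members differed by more than 0.6 between I10 young and I79 young, where 10.9% of all genes did.

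**Figure D1:**
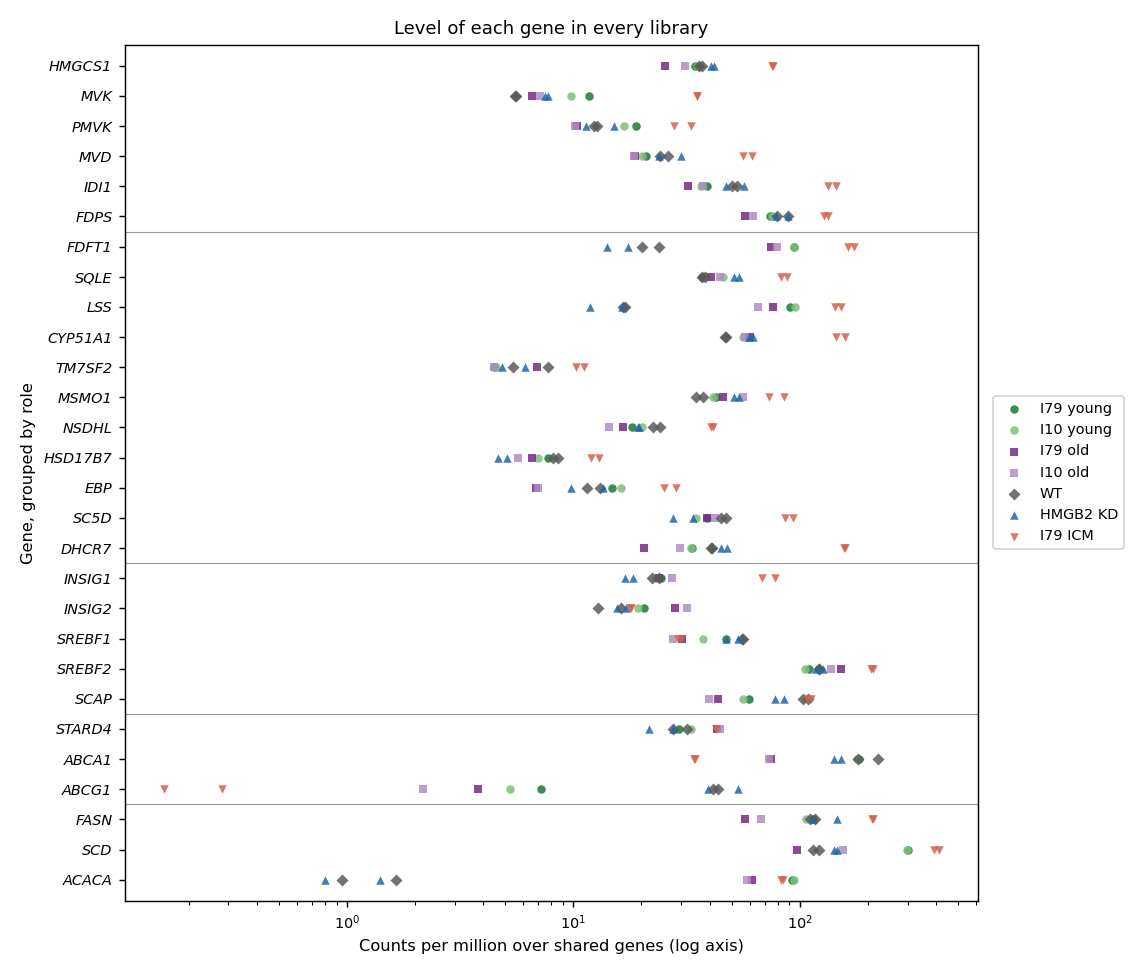
Level of each of the 28 genes in every library, in CPM over the genes listed in all kinds of table (log axis), with genes in rows grouped by role and 1 symbol per library. The I79 ICM libraries lie to the right of the other libraries for the enzymes in the upper 2 blocks and to the left for ABCA1 and ABCG1. FDFT1, LSS and ACACA lie lower in the WT and HMGB2 KD libraries, and the cause was not tested.

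Tables were counted in different ways, and the levels of some members differed widely between them. ACACA, the rate-limiting enzyme of fatty acid synthesis, stood at 0.95 and 1.66 CPM over shared genes in the WT libraries but at 92.9 CPM in I79 young. FDFT1 measured 23.8 and 20.1 CPM in WT but 94.5 CPM in I79 young. LSS, which closes the sterol rings, measured 16.9 and 16.6 CPM in WT but 91.0 CPM in I79 young. The cause was not tested, and counting cannot be told apart from isolate or cell state here. Because the tables were counted in different ways, tests were run only within a kind of table. Reads of MVK, CYP51A1, TM7SF2, EBP, SREBF1 and ACACA can be shared with annotated protein-coding genes that overlap them, and FDPS and HSD17B7 have pseudogene copies, so their counts are less certain.

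The first comparison asks what depletion of HMGB2 does to these transcripts. Of the 28 genes, 27 did not pass the test. MSMO1, the methylsterol oxidase that removes methyl groups from the sterol ring, was the 1 member called, and it was 1.53-fold higher after knockdown. SQLE, which epoxidizes squalene and is a slow step of the route, was 1.47-fold higher but missed both thresholds. Neither the SREBP genes nor the exporters nor the fatty acid enzymes passed the test. For ACACA this says little, since it had only 30 and 57 counts in WT and 28 and 55 in HMGB2 KD (log2 fold change -0.16, SE 0.47).

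The targeted gene itself, HMGB2, measured 27.1 and 27.3 CPM in the WT libraries, against 3.22 and 3.64 CPM after knockdown. Knockdown lowered it by a log2 fold change of -2.99 (SE 0.16; edgeR's quasi-likelihood test with Benjamini-Hochberg adjustment, adjusted p = 8.28e-07). CPM in this comparison are scaled by TMM, a correction for differences in RNA composition. Calls needed both an adjusted p under 0.01 and a log2 fold change over 0.6 in size. By this rule 5.2% of 15338 genes were called (2.86% higher and 2.34% lower), against 1 of 28 members. At an adjusted p under 0.05 and the same size, 2 members passed, MSMO1 higher and HSD17B7 lower, where 7.74% of all genes did (4.3% higher and 3.44% lower).

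MSMO1 (chr4:166248819-166264316 of GRCh37, plus strand) measured 34.6 and 32.0 CPM in the WT libraries, against 51.8 and 50.1 CPM after knockdown. The groups did not overlap. The difference was 0.61 on the log2 scale (SE 0.13, adjusted p = 0.0072, edgeR). The call was lost when any 1 library was left out, with an adjusted p of 0.043 and 0.096 without WT replicates 1 and 2, and of 0.016 and 0.017 without HMGB2 KD replicates 1 and 2, where the lone library of a group was assumed to vary like the other group. The size of the change lay between 0.55 and 0.67 in these fits.

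SQLE measured 35.0 and 34.1 CPM in the WT libraries, against 51.7 and 50.1 CPM after knockdown. Its libraries did not overlap either, and the difference of 0.56 (SE 0.13) had an adjusted p of 0.011 by edgeR. CYP51A1, the lanosterol demethylase of the steps upstream of MSMO1, differed by 0.44 on the log2 scale (SE 0.13; edgeR, adjusted p = 0.036), from 43.4 and 43.2 to 56.9 and 60.7 CPM. HMGCS1, which makes HMG-CoA, measured 33.2 and 34.1 CPM in the WT libraries, against 38.9 and 41.0 CPM after knockdown (log2 fold change 0.25, SE 0.13, adjusted p = 0.27, edgeR).

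Other sterol enzymes had values in the opposite direction. HSD17B7, a sterol ketoreductase, measured 7.51 and 7.88 CPM in the WT libraries, against 4.86 and 4.57 CPM after knockdown (log2 fold change -0.71, SE 0.20, adjusted p = 0.039, edgeR). SC5D, a sterol desaturase of the last steps, measured 43.7 and 41.5 CPM in the WT libraries, against 32.2 and 27.0 CPM after knockdown (log2 fold change -0.52, SE 0.14, adjusted p = 0.025, edgeR). The groups did not overlap for either gene. Of the 11 genes of the squalene and sterol steps, 4 had positive and 7 had negative fold changes. All 6 genes of the mevalonate and isoprenoid steps had positive ones, between 0.06 and 0.53, of which 1 had an unadjusted p under 0.05. The direction of FDPS, PMVK, MVD and IDI1 among them turned in at least 1 alternative fit.

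None of the 5 control genes passed the test after knockdown by edgeR, with 2 at an unadjusted p under 0.05 and 0 called by DESeq2. SREBF2 measured 112.6 and 112.1 CPM in the WT libraries, against 112.3 and 124.1 CPM after knockdown, so the groups overlapped. SREBF1 measured 51.6 and 51.1 CPM in the WT libraries, against 45.3 and 52.2 CPM after knockdown, again with overlap. INSIG1, itself a target of SREBP that restrains SCAP, measured 20.5 and 21.96 CPM in the WT libraries, against 16.1 and 18.0 CPM after knockdown (log2 fold change -0.32, SE 0.14, adjusted p = 0.19, edgeR). Its groups did not overlap, yet the difference did not pass the test. Its relative INSIG2 measured 15.0 and 11.8 CPM in the WT libraries, against 16.3 and 15.4 CPM after knockdown (log2 fold change 0.24, SE 0.16, adjusted p = 0.41, edgeR).

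Among the exporters, ABCA1, which loads cholesterol onto apolipoproteins, measured 165.9 and 205.5 CPM in the WT libraries, against 145.7 and 139.2 CPM after knockdown (log2 fold change -0.38, SE 0.14, adjusted p = 0.10, edgeR). The WT libraries differed from each other by more than the distance from the lower of them to either HMGB2 KD library. FASN, the fatty acid synthase, measured 107.6 and 102.0 CPM in the WT libraries, against 109.4 and 143.4 CPM after knockdown (log2 fold change 0.27, SE 0.14, adjusted p = 0.28, edgeR). SCD measured 105.3 and 112.0 CPM in the WT libraries, against 134.8 and 143.3 CPM after knockdown (log2 fold change 0.36, SE 0.13, adjusted p = 0.092, edgeR). Groups of 16 members did not overlap, 9 higher and 7 lower; the same held for 53.8% of all genes, 27.4% higher and 26.4% lower. The median log2 fold change of the members was 0.07, and that of all genes was 0.0018.

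**Figure D2:**
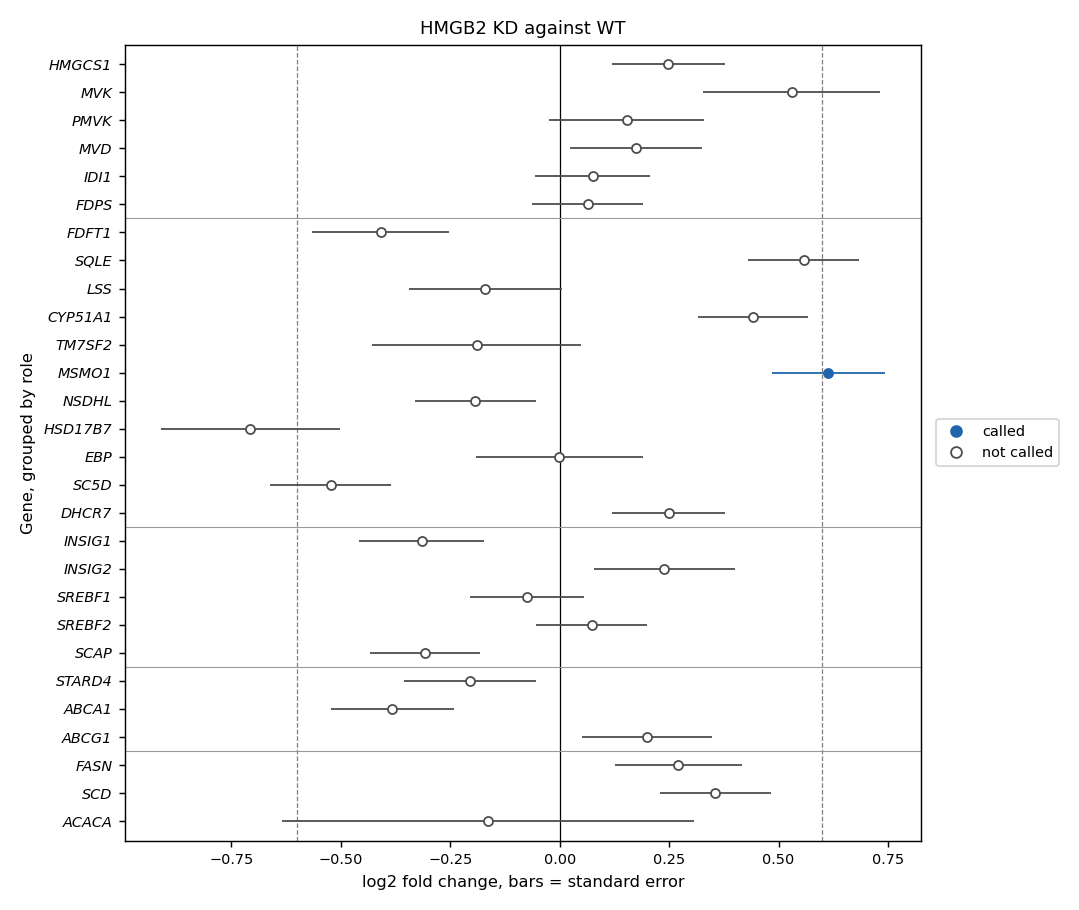
Log2 fold change of each gene in HMGB2 KD against WT (2 libraries each), with bars for the standard error and dashed lines at 0.6 and -0.6. MSMO1 (0.61, filled) is the 1 gene called; HSD17B7 (-0.71) lies past the lower line without passing the threshold on the adjusted p.

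The 8 proliferation markers summed to 212.0 and 222.4 CPM over shared genes in WT and to 205.3 and 201.7 CPM in HMGB2 KD, and 0 were called by edgeR (0 at an unadjusted p under 0.05, 0 by DESeq2). On the same scale they summed to 1097 and 1237 CPM in I79 young and I10 young. In I79 old and I10 old the sums were 151 and 298 CPM, although these columns were counted in another way. Of the 6 adipocyte markers 1 could be tested, the fatty acid carrier FABP4, and it was called higher (30 and 49 counts in WT, 154 and 217 in HMGB2 KD); 3 of the 6 were at 0 in every library. Of the 8 fibroblast markers 4 were called, COL1A1, VIM and PDGFRB higher and COL3A1 lower. The part of these markers in the values of the lipid genes was not tested.

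Old against young columns address which transcripts change when the isolates are passaged to senescence. ABCA1 fell 2.11-fold and was the 1 member called. The fatty acid enzymes FASN and SCD and the sterol isomerase EBP were lower in old columns at a looser adjusted p under 0.05, and SREBF2, INSIG2 and the sterol carrier STARD4 were higher at the same threshold. Most enzymes of the mevalonate and sterol route had small values in mixed directions. The young and old columns of both isolates were fitted together with isolate as a covariate, so the 2 isolates served as replicates with 1 residual degree of freedom.

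By the rule given above 9.57% of 15116 genes were called in this comparison (5.75% higher and 3.82% lower), against 1 of 28 members. At an adjusted p under 0.05 the share of all genes was 25.5%, with 13.5% higher and 12.1% lower, and 7 members passed, 3 higher and 4 lower. The median log2 fold change was -0.09 over the members and -0.01 over all genes.

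ABCA1 (chr9:107543287-107690436 of GRCh37, minus strand) stood at 159.9 CPM in I79 young and at 73.4 CPM in I79 old. In the other isolate it stood at 155.0 CPM in I10 young and at 75.8 CPM in I10 old. Both old columns lay under both young columns, and the fall was nearly the same in size in both isolates. The log2 fold change was -1.08 (SE 0.10, adjusted p = 0.0051, edgeR). Within I79 the log2 ratio was -1.12 with a counting interval of -1.22 to -1.03, and within I10 it was -1.03 with an interval of -1.12 to -0.94. These are exact 95% Clopper-Pearson intervals and cover counting error only. ABCG1, its partner in export to high-density lipoprotein, stood at 6.34 and 4.54 CPM in the young and at 3.74 and 2.27 CPM in the old columns of I79 and I10 (log2 fold change -0.87, SE 0.25, adjusted p = 0.057, edgeR).

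SREBF2 measured 96.3 CPM young and 150.2 CPM old in I79, against 91.8 CPM young and 143.2 CPM old in I10. The isolates were almost identical, at 0.64 in each on the log2 scale, and the combined log2 fold change of 0.64 (SE 0.10) had an adjusted p of 0.012 by edgeR. INSIG2 measured 17.9 CPM young and 27.7 CPM old in I79, against 16.8 CPM young and 33.1 CPM old in I10. All old values lay above all young ones (log2 fold change 0.80, SE 0.15, adjusted p = 0.020, edgeR). STARD4, which carries sterol between membranes, differed by 0.71 on the log2 scale (SE 0.11; edgeR, adjusted p = 0.013), from 25.7 and 28.6 CPM in the young to 42.3 and 46.3 CPM in the old columns of I79 and I10.

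SREBF1 had a value of the opposite sign to SREBF2. It measured 41.3 CPM young and 29.8 CPM old in I79, against 32.6 CPM young and 28.7 CPM old in I10 (log2 fold change -0.33 with SE 0.13, adjusted p = 0.12 by edgeR). INSIG1 measured 21.5 CPM young and 23.5 CPM old in I79, against 20.2 CPM young and 28.4 CPM old in I10 (log2 fold change 0.31 with SE 0.15, adjusted p = 0.18 by edgeR). SCAP stood at 52.1 and 48.7 CPM in the young and at 42.7 and 41.3 CPM in the old columns of I79 and I10 (log2 fold change -0.26, SE 0.10, adjusted p = 0.12, edgeR). For these 3 genes the old and young columns did not overlap, but the differences did not pass the test.

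The 3 fatty acid genes all had lower values in old cells. SCD (chr10:102106990-102124583 of GRCh37, plus strand) measured 262.5 CPM young and 95.5 CPM old in I79, against 258.8 CPM young and 161.4 CPM old in I10. The ratio was further from 0 in I79, with a log2 ratio of -1.46 (counting interval -1.54 to -1.38) against -0.68 (-0.75 to -0.61) in I10. Over both isolates the log2 fold change was -1.07 (SE 0.21, adjusted p = 0.022, edgeR). FASN measured 99.9 CPM young and 56.5 CPM old in I79, against 92.9 CPM young and 70.0 CPM old in I10 (log2 fold change -0.61 with SE 0.14, adjusted p = 0.029 by edgeR). ACACA, which supplies malonyl-CoA to FASN, differed by -0.43 on the log2 scale (SE 0.10; edgeR, adjusted p = 0.030), from 81.5 and 82.4 CPM to 60.5 and 60.9 CPM. The values of ACACA were alike in both isolates.

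The sterol route itself showed no common direction. EBP, the isomerase of the late steps, stood at 12.99 and 14.1 CPM in the young and at 6.73 and 7.24 CPM in the old columns of I79 and I10 (log2 fold change -0.95, SE 0.17, adjusted p = 0.017, edgeR). HMGCS1 measured 30.1 CPM young and 25.0 CPM old in I79, against 30.6 CPM young and 32.3 CPM old in I10. Its columns overlapped. SQLE measured 32.6 CPM young and 39.8 CPM old in I79, against 40.0 CPM young and 46.0 CPM old in I10 (log2 fold change 0.24 with SE 0.11, adjusted p = 0.15 by edgeR). MSMO1 measured 37.3 CPM young and 45.3 CPM old in I79, against 35.9 CPM young and 58.6 CPM old in I10 (log2 fold change 0.50 with SE 0.14, adjusted p = 0.057 by edgeR). PMVK, the second kinase of the mevalonate route, differed by -0.57 on the log2 scale (SE 0.16; edgeR, adjusted p = 0.053).

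Of the 17 genes of the mevalonate and sterol steps, 7 had positive and 10 had negative log2 fold changes. Both old columns lay outside both young columns for 21 of the 28 members, 9 higher and 12 lower, where 74% of all genes did so (36.5% higher and 37.5% lower). In 23 members the ratio had the same sign in both isolates and in 5 it had opposite signs, where 19.1% of all genes had opposite signs. With plain library totals in place of TMM the median of all genes moved from -0.01 to -0.22 and the share of higher genes among all called ones from 60.1% to 32.6%; ABCA1, SCD, FASN and EBP stayed lower and SREBF2, INSIG2 and STARD4 stayed higher, at 0.43, 0.59 and 0.50. Proliferation markers moved with this comparison: 7 of 8 were called lower in old columns, and their sums fell from 1097 and 1237 CPM to 151 and 298 CPM over shared genes in I79 and I10. On the same scale, endothelial markers summed to 109.2 CPM young and 219.7 CPM old in I79, against 76.3 and 160.8 CPM in I10; of the 2 tested, TEK was called higher. Of the 8 fibroblast markers 1 was called, LUM, higher. The part of these markers in the values of the lipid genes was not tested, and fewer cells of a type cannot be told apart from less RNA per cell.

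**Figure D3:**
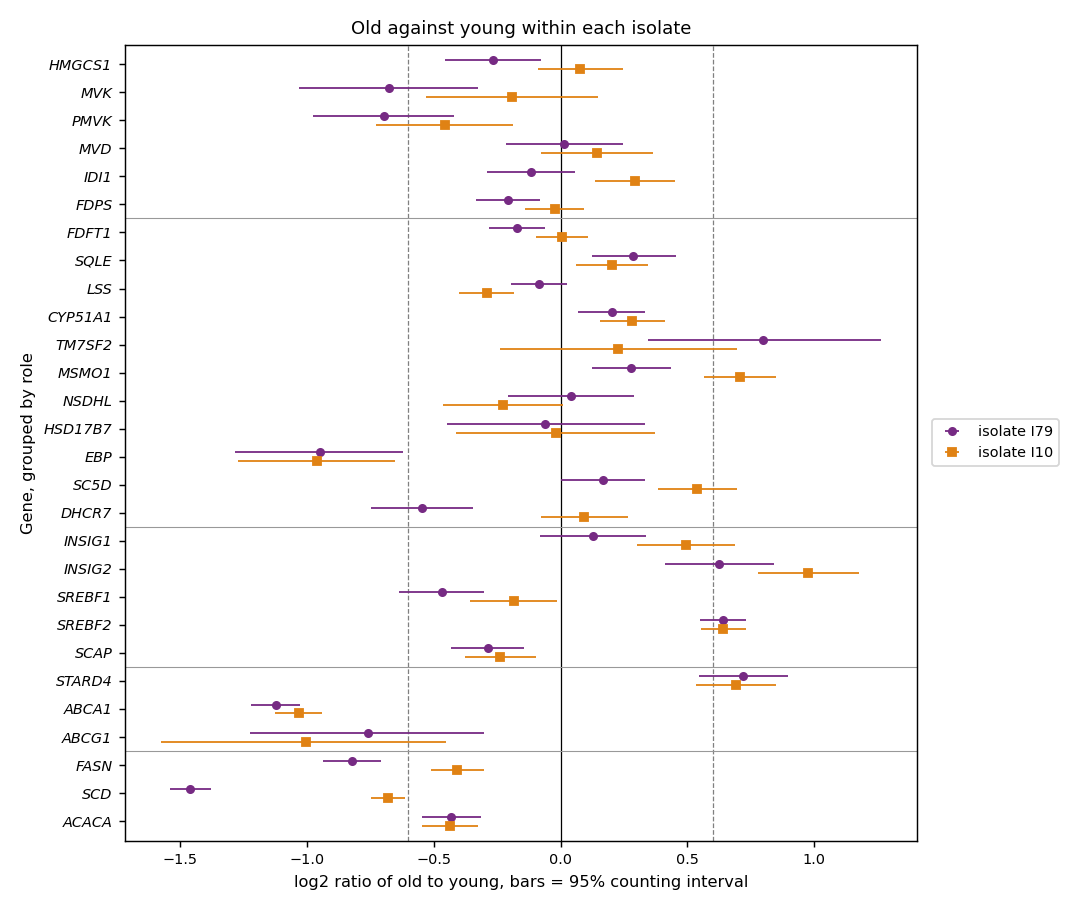
Log2 ratio of old to young for each gene within isolate I79 (circles) and isolate I10 (squares), with bars for the 95% counting interval and dashed lines at 0.6 and -0.6. ABCA1 lies near -1 in both isolates and SREBF2 at 0.64 in both, while SCD (-1.46 and -0.68) and DHCR7 (-0.55 and 0.09) differ between isolates.

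The ICM libraries address what the small molecule does to I79 cells. Nearly all enzymes of cholesterol synthesis stood higher in these libraries than in I79 young, and the exporters stood lower. All 6 genes of the mevalonate and isoprenoid steps and all 11 of the squalene and sterol steps were over 0.6 higher on the log2 CPM scale, with a median of 1.32 and 1.17. DHCR7, which reduces 7-dehydrocholesterol to cholesterol, was highest, at 4.70-fold. ABCA1 was 5.32-fold lower. No test was run, because the I79 ICM reads came from short-fragment libraries counted by transcript region and I79 young from estimated transcript counts.

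Values in this comparison are CPM over shared genes, and differences are between mean log2 CPM with a prior count of 2. Of 15015 genes 61% differed by over 0.6, with 31.1% higher and 29.8% lower, and of the 28 members 21 were higher and 3 were lower. The median difference was 0.88 over the members and 0.00 over all genes. WT, which was also counted differently from I79 young and for which no ICM is named, gave a background: 44.9% of all genes differed from I79 young by over 0.6 (21.6% higher and 23.3% lower), and of the members 2 were higher and 5 were lower, with a median of 0.05. Set against WT, 21 members were higher and 3 lower in the I79 ICM libraries (31.4% and 28.3% of all genes, 59.7% together). Set against I79 old, 21 were higher and 3 lower as well (34.5% and 25.8% of all genes, 60.3% together). These were not all the same members. Against WT, ACACA (5.96) and SCD (1.77) were over 0.6 higher, while SCAP (0.06) and HSD17B7 (0.58) were not. FDFT1 (2.94), LSS (3.13) and ACACA measured far lower in WT than in I79 young. Against I79 old, SCD (2.05) was over 0.6 higher and SREBF2 (0.44) was not. INSIG2 (-0.64) was over 0.6 lower there, where SREBF1 (-0.04) was not.

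DHCR7 (chr11:71139239-71163914 of GRCh37, minus strand) stood at 157.6 and 158.0 CPM in the I79 ICM libraries, at 33.5 CPM in I79 young, at 20.4 CPM in I79 old and at 41.0 and 40.5 CPM in WT. The I79 ICM values lay far above those of every other library. Its difference from I79 young was 2.23 on the log2 scale, against 0.28 for WT. IDI1, which isomerizes isopentenyl diphosphate, stood at 145.2 and 132.9 CPM in I79 ICM and at 39.0 CPM in I79 young, a difference of 1.83 (WT 0.40). MVK, the mevalonate kinase, stood at 35.2 and 35.2 CPM in I79 ICM and at 11.7 CPM in I79 young, a difference of 1.58, although WT differed by -1.07.

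HMGCS1 stood at 76.3 and 75.1 CPM in the I79 ICM libraries, at 34.3 CPM in I79 young and at 35.97 and 36.99 CPM in WT. Both I79 ICM libraries lay above all others, with a difference of 1.14 from I79 young. SQLE stood at 82.6 and 87.9 CPM in I79 ICM, at 37.1 CPM in I79 young and at 37.96 and 36.99 CPM in WT, a difference of 1.20. MSMO1 stood at 84.9 and 72.9 CPM in I79 ICM, at 42.5 CPM in I79 young and at 37.5 and 34.7 CPM in WT, a difference of 0.89. The smallest differences among the 17 enzymes were those of PMVK and HSD17B7, both at 0.68.

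The control genes split. INSIG1 stood at 68.4 and 77.9 CPM in the I79 ICM libraries, at 24.5 CPM in I79 young and at 22.3 and 23.8 CPM in WT, a difference of 1.57. SREBF2 stood at 209.7 and 205.4 CPM in I79 ICM, at 109.8 CPM in I79 young and at 122.2 and 121.5 CPM in WT, a difference of 0.92. Both genes stood above every other library. SREBF1 went the other way, at 29.9 and 28.9 CPM in I79 ICM, 47.1 CPM in I79 young and 56.0 and 55.4 CPM in WT, a difference of -0.68. In I79 old SREBF1 stood at 30.3 CPM, from which the I79 ICM libraries differed by -0.04. INSIG2 stood at 17.9 and 18.1 CPM in I79 ICM, 20.4 CPM in I79 young and 16.3 and 12.8 CPM in WT, so its values lay between those of the controls. SCAP was 0.89 above I79 young, but WT was 0.83 above it too, at 108.5 and 103.4 CPM against 108.0 and 112.5 CPM in I79 ICM.

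ABCA1 stood at 34.3 and 34.0 CPM in the I79 ICM libraries, at 182.3 CPM in I79 young, at 74.5 CPM in I79 old and at 180.0 and 222.7 CPM in WT. The difference from I79 young was -2.41, and from I79 old it was -1.12. No other library was as low. ABCG1 had 2 and 3 reads in the I79 ICM libraries and 99 counts in I79 young, which gives a log2 ratio of -5.09 with an exact 95% counting interval of -6.74 to -3.81. Its level also differed between the other tables, at 7.22 CPM in I79 young and 43.5 and 41.3 CPM in WT. ABCA1, ABCG1 and SREBF1 were the 3 members over 0.6 lower. SREBF1 did not stay past 0.6 with coding-region ICM reads only, an alternative given below. STARD4 stood at 42.7 and 42.8 CPM in I79 ICM and at 29.3 CPM in I79 young, a difference of 0.55.

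Fatty acid genes were less uniform. FASN stood at 207.6 and 209.6 CPM in the I79 ICM libraries, at 113.9 CPM in I79 young and at 116.7 and 110.5 CPM in WT, a difference of 0.87. SCD stood at 392.7 and 411.4 CPM in I79 ICM, at 299.2 CPM in I79 young and at 114.2 and 121.4 CPM in WT. Its difference from I79 young was 0.43, which is under 0.6. It became -1.10 when only coding-region reads of the ICM libraries were used and I79 young kept its whole-transcript counts. Those coding reads were 21.4% and 21.8% of the SCD reads in the ICM libraries. ACACA stood at 82.8 and 84.7 CPM in I79 ICM and at 92.9 CPM in I79 young, a difference of -0.15.

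In an alternative, only coding-region reads of the ICM libraries were used, while I79 young kept its whole-transcript counts. By construction this lowers the ratio of genes with a small coding share. By this count 19 members stood over 0.6 higher and 5 lower, the members' median was 1.14 and that of all genes -0.25. LSS (0.49) and MSMO1 (0.40) then lay under 0.6, and STARD4 (-0.62) and INSIG2 (-0.87) were lower than in I79 young. SCD was also among the members over 0.6 lower by this count, and SREBF1 no longer was. The exporters were still lower (ABCA1 -2.12), and DHCR7 stood 2.23 higher as before. Summed over the 28 members, levels were 2651 and 2647 CPM in the I79 ICM libraries, 1626 CPM in I79 young, 1159 CPM in I79 old and 1339 and 1339 CPM in WT. The 8 proliferation markers moved with this comparison, all over 0.6 lower, with a median of -6.25 (WT against I79 young -2.23). Of the 8 fibroblast markers 4 stood over 0.6 lower, with a median of -0.75 over the list, against 5 and -0.69 in WT against I79 young. They summed to 29936 CPM over shared genes in I79 young and to 12567 and 12848 CPM in the I79 ICM libraries. The part of these markers in the values of the lipid genes was not tested, and the treatment and the kind of library cannot be told apart here.

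**Figure D4:**
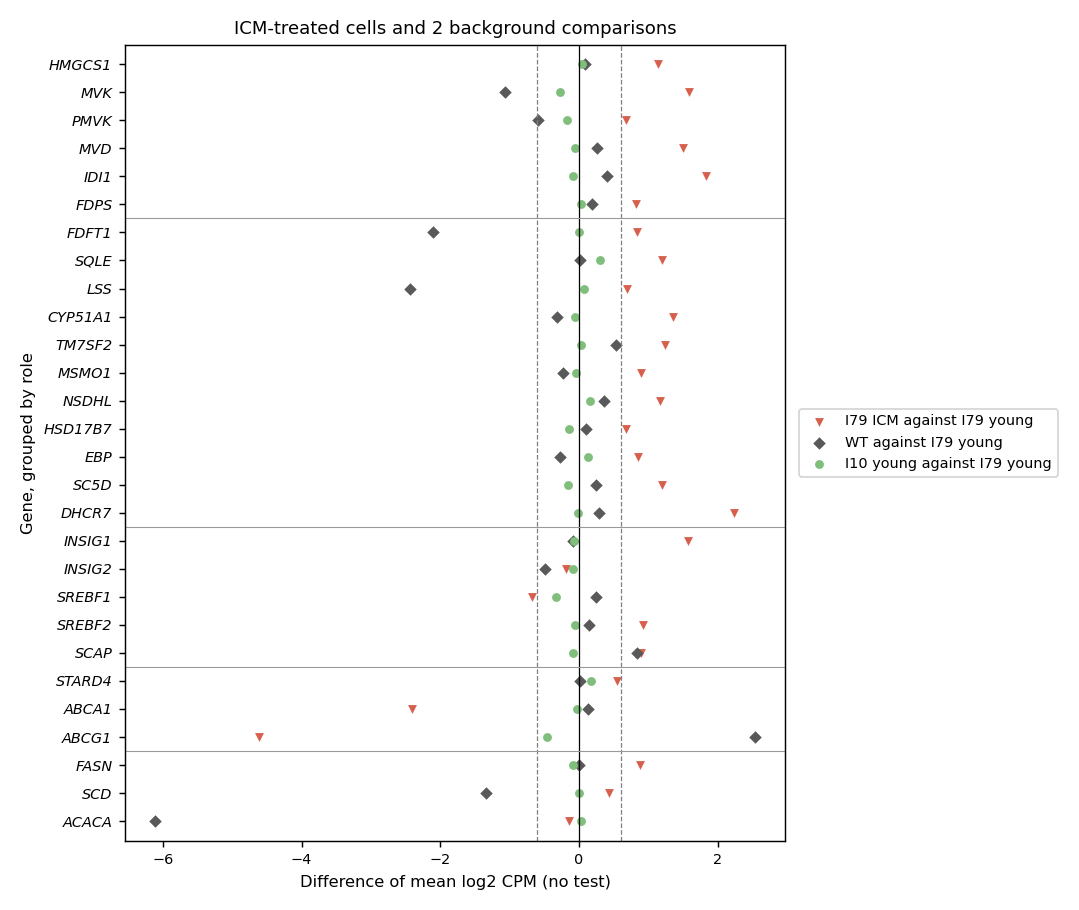
Difference of mean log2 CPM from I79 young for the I79 ICM libraries (triangles), WT (diamonds) and I10 young (circles), with dashed lines at 0.6 and -0.6 and no test. The triangles lie to the right of 0.6 for the 17 enzymes of the upper 2 blocks and far to the left for ABCA1 (-2.41) and ABCG1 (-4.61 with the prior count, from 2 and 3 reads); WT lies far to the left for FDFT1, LSS and ACACA.

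Neighbouring genes of lipid metabolism were counted from 3 further lists. After HMGB2 knockdown, 15 of 17 other sterol and isoprenoid genes and all 16 other sterol sensing and transport genes could be tested, and 0 were called in either list (4 and 3 at an unadjusted p under 0.05, and 0 by DESeq2). Of 20 other fatty acid and glycerolipid genes, 2 were called, both lower, where 5.2% of all genes were called. CD36, a fatty acid transporter, measured 25.3 and 21.5 CPM in the WT libraries, against 6.83 and 4.11 CPM after knockdown (log2 fold change -2.10, SE 0.21, adjusted p = 5.6e-05, edgeR). ACSL4, which activates arachidonic acid, measured 1870 and 1497 CPM in the WT libraries, against 587.5 and 338.8 CPM after knockdown (log2 fold change -1.86, SE 0.22, adjusted p = 0.00017, edgeR). Both genes also differed between kinds of table. In CPM over shared genes, ACSL4 stood at 2029 and 1623 in WT but at 273.5 in I79 young. CD36 stood at 27.5 and 23.3 in WT but at 5.98 in I79 young, and the cause was not tested.

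In old against young, where 9.57% of all genes were called, LBR, a sterol reductase of the inner nuclear membrane, was the 1 of 16 tested sterol and isoprenoid genes called, and it fell (log2 fold change -1.17, SE 0.11, adjusted p = 0.0055, edgeR). Of the 16 sterol sensing and transport genes 3 were called, all higher. They were NPC1 (1.22, SE 0.11) and NPC2 (1.22, SE 0.16), which move cholesterol out of lysosomes, and NR1H2 (0.92, SE 0.12), which encodes an LXR. NR1H3, which also encodes an LXR, had a negative value and was not called (-0.91, SE 0.23, adjusted p = 0.042, edgeR). Of 19 tested fatty acid genes 1 was called, the desaturase SCD5, which was higher (1.49, SE 0.12) while SCD had a negative fold change. In the I79 ICM libraries 5 of the 17 sterol and isoprenoid genes stood over 0.6 higher and 2 lower, 6 of the 16 sensing and transport genes higher and 4 lower, and 12 of the 20 fatty acid genes higher and 1 lower, where 31.1% of all genes stood higher and 29.8% lower. In WT against I79 young, the background, the same lists had 1 higher and 4 lower, 6 higher and 1 lower, and 8 higher and 3 lower.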

How the data were processed

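Poly(A)+ RNA of IMR90 cells was sequenced in 14 samples of 7 groups, taken from the sample titles. The WT and HMGB2 KD tables hold raw counts per gene, as the authors deposited them. The submitters' processing notes name STAR 2.6.0c, GRCh37, featureCounts and DESeq2, while the tables end in rows of the kind that htseq-count adds; which tool counted them, and with which strand setting, is not given in the sources used here. Those rows held 16.9% to 18.0% of each table and were left out. Old and young cells have 1 table of estimated counts and TPM values per transcript for each group, as the authors deposited them; these were summed per gene through GENCODE v44 on GRCh37 (97.7% of transcripts matched) and rounded. The ICM tables, also deposited by the authors, give an estimated count per gene and region from mRNA libraries matched to ribosome profiling. Their build is not given in the sources used here.

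Tests were edgeR 4.0.16 quasi-likelihood fits (R 4.3.3; TMM, filterByExpr, Benjamini-Hochberg over all genes), with the thresholds in the study's methods (adjusted p 0.01, log2 fold change 0.6). Knockdown was tested as 2 against 2 libraries, and old against young over 4 columns with isolate as a covariate. The ICM comparison used genes with at least 10 counts in I79 young, WT or ICM libraries. Counting intervals cover counting error only, since reads carry no molecular identifiers. No 2 libraries were duplicates, with a chi-square per degree of freedom of 27.1 between the WT, 41.4 between the HMGB2 KD and 2.32 between the ICM libraries. DESeq2 1.42.0, other scalings, filters and left-out libraries were tried, and fits were tested on simulated data.

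The members and the further lists were chosen by function, with earlier results of these data known. Values are given for each member called in either tested comparison, for HMGCS1, SQLE, INSIG1, INSIG2, SREBF1, SREBF2, ABCA1, FASN and SCD, and for other members by role. Of the further lists up to 3 called genes per comparison are named, by size of the fold change, and NR1H3 is named beside NR1H2. Columns of the authors' own fold changes and p-values were not used.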

Additional observations from a re-analysis of the deposited data

Results flagged for a closer look

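The change from young to old had opposite signs in the 2 isolates in 5 of the 28 members, a share similar to the 19.1% of all 15116 genes. With 1 column per group and isolate the difference between isolates was not tested, and intervals cover counting error only. The largest gap was that of DHCR7, with a log2 ratio of -0.55 (counting interval -0.75 to -0.35) in I79 and 0.09 (-0.08 to 0.27) in I10, a difference of -0.64. IDI1 had -0.12 (-0.29 to 0.06) in I79 and 0.29 (0.14 to 0.45) in I10, a difference of -0.41. HMGCS1 had -0.27 (-0.46 to -0.08) in I79 and 0.08 (-0.09 to 0.25) in I10, a difference of -0.34. FDFT1 had -0.17 in I79 and 0.0062 in I10, a difference of -0.18, and NSDHL, a sterol dehydrogenase, had 0.04 in I79 and -0.23 in I10, a difference of 0.27. In DHCR7, IDI1, HMGCS1, FDFT1 and NSDHL the interval of at least 1 isolate included 0.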

How the results depend on the processing

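The knockdown count of 1 called member was 2 (MSMO1 and HSD17B7) at an adjusted p under 0.05, 2 with 1 RUVs factor, 0 with plain library totals and 0 whichever library was left out; DESeq2, DESeq2 with 1 RUVs factor (chosen after seeing the data) and no filter gave 1. With the replicate number as a block it was 2, and all genes called rose from 797 to 1243; deviations of same-numbered libraries correlated at 0.12 over 2 pairs and the labels do not say what the numbers mark, so they were not read as pairs. Old and young columns were already paired by isolate in the fit, and the pooled columns carry no replicate number to pair by. Without HMGB2 KD replicate 2 all genes called numbered 312. Plain totals moved the share of higher calls from 55.0% to 44.3%. The old against young count of 1 was 7 at an adjusted p under 0.05, 7 with no filter, 5 with plain totals, 3 with DESeq2, 2 with no isolate covariate and 2 with length-scaled counts, and ABCA1 was among them each time; all genes called were 1447, but 4251 with no filter, 3130 with plain totals and 3860 at the looser threshold. The ICM count of 24 was 23 or 24 without either ICM library, and all its alternatives stayed within 1.5 times of it. This count pools both directions and does not follow single members. With coding-region reads only it was made of 19 higher and 5 lower, in place of 21 and 3.

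Small knockdown values turned sign in some fits with 1 library left out, whose log2 fold changes ranged from -0.080 to 0.34 for PMVK, -0.012 to 0.33 for MVD, -0.051 to 0.19 for IDI1, -0.020 to 0.14 for FDPS, -0.44 to 0.046 for LSS, -0.43 to 0.091 for TM7SF2, -0.27 to 0.22 for EBP, -0.18 to 0.015 for SREBF1, -0.022 to 0.39 for ABCG1 and -0.65 to 0.29 for ACACA; FDPS was at -0.00028 with plain totals. Within single isolates the old against young ratio ranged from -0.27 to 0.078 for HMGCS1, -0.12 to 0.29 for IDI1, -0.17 to 0.0062 for FDFT1, -0.23 to 0.041 for NSDHL and -0.55 to 0.094 for DHCR7; with plain totals MVD was at -0.13 and IDI1 at -0.12, and with length-scaled counts LSS was at 0.0026. The cause was not tested.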

Other observations

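Transcript-level TPM in the old and young columns differed in how evenly a gene's signal was spread. For ABCA1 the transcript ABCA1-202 held between 97.4% and 99.3% of the gene's TPM in the 4 columns, and SCD had all of it on SCD-201. For SREBF2 the transcript SREBF2-201 held 72.9% young and 83.8% old in I79, against 77.3% young and 80.1% old in I10. For FASN the full-length FASN-201 (8565 bases) held 42.0% young and 53.7% old in I79, against 35.9% young and 65.5% old in I10. Transcripts of 141 and 100 bases (FASN-212 and FASN-210) held 29.7% and 0% in I79 young, 0% and 39.3% in I79 old, 36.6% and 15.6% in I10 young, and 0% each in I10 old, where FASN-204 (681 bases, annotated to nonsense-mediated decay) held 28.6%. The shares of FASN-212 and FASN-210 rested on very few estimated reads. FASN-212 had 3 in I79 young and 5 in I10 young, and FASN-210 had 1 in I79 old and 1 in I10 young. FASN-201 had between 1030.5 and 1736.1 in the 4 columns. The fold change of FASN from length-scaled counts was -1.21, against -0.61 from summed counts. Length-scaled counts were made from TPM, so these short transcripts weigh in the former value.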
